A study of Mus musculus with 2 samples.

Results

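Myosins are the motor proteins that pull on actin filaments. The 10 genes described here are the nonmuscle myosin II heavy chains Myh9 and Myh10, the light chains Myl6, Myl9, Myl12a and Myl12b, the light chain kinase gene Mylk, and the unconventional myosins Myo1f, Myo1g and Myo9b. They were taken by name from a list, and all 10 were found among the 43346 mouse gene rows of the deposited tables. Total RNA with ribosomal RNA removed was sequenced from 2 libraries of primary cells labelled megakaryocyte, from adult male C57BL/6J mice of 5 to 6 weeks. The libraries are biological replicates 1 and 2 of a single group, carry the same donor label, and were made from 100 ng of RNA. Their labels state a lower size limit of 221 nucleotides in library 1 and 200 in library 2, and an upper limit of 1000 in both. Summed expected counts, the estimated reads per gene, were 42703213 in library 1 and 50532821 in library 2. There is no second condition, so genes were compared with each other within the libraries and the libraries with each other.

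A molecule of myosin II holds a pair of heavy chains, a pair of essential light chains and a pair of regulatory light chains. The heavy chain carries the motor and the tail that assembles into filaments, the essential light chain stabilises the lever arm, and phosphorylation of the regulatory light chain switches the motor on. In megakaryocytes, Myh9 is known for its part in platelet release, and mutations of the human gene cause a disorder with large platelets. In neutrophils and monocytes myosin II retracts the rear of the migrating cell. Class I myosins are single-headed and tether membranes to actin, and Myo9b is a myosin of class IX.

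Among the regulatory light chains, Myl12a and Myl12b are near-identical in bases, which bears on how reads were divided between them. Coding sequences of Myl9, Myl12a and Myl12b were read from the GENCODE M21 transcripts on mm10. Their first 90 bases are shown with codons 19 and 20 in capitals. These codons, found by translating the sequence, encode the threonine and serine that myosin light chain kinase phosphorylates.
Myl9-201: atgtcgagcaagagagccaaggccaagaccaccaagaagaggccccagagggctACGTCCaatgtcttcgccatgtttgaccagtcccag
Myl12a-201: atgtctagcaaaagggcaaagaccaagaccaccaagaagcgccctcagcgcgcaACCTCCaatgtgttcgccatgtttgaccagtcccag
Myl12b-201: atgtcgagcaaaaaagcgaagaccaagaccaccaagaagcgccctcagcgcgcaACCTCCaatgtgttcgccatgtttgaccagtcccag
These stretches lie at chr2:156778545-156778634 on the plus strand for Myl9, and at chr17:70996791-70996880 and chr17:70977142-70977231 on the minus strand for Myl12a and Myl12b. Over the 516 coding bases without the stop codon, Myl12a and Myl12b differed at 18 positions (96.5% identity) and at 4 of 172 encoded residues. Myl9 was more distant in bases, with 74 differences from Myl12a and 70 from Myl12b, while 10 and 11 residues differed.

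Myl6 has a cassette exon that changes the end of the protein. The last 56 coding bases before the stop codon are shown for both forms, with the 26 bases that follow the last shared exon in capitals.
Myl6-201: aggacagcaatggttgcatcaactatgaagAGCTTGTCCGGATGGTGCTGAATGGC
Myl6-206: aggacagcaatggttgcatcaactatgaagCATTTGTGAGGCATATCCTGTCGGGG
The exon of 45 bases, chr10:128491720-128491764 on the minus strand, is skipped in Myl6-201 and included in Myl6-206. GENCODE M21 lists 15 transcripts of Myl6, whereas the transcript tables used here quantify 1 of them, Myl6-201, so the level of Myl6 does not separate these forms.

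The identity of the libraries was checked first. Of 14 megakaryocyte and platelet markers, 11 lay under 1 TPM (the transcript abundance scaled per length and depth) in both libraries and 3 had 0 counts in both. Their summed level was 10.6 TPM in library 1 and 12.2 in library 2, with Itgb3 at 5.79 ± 0.184 and Itga2b at 4.08 ± 1.15 TPM (SD, n = 2) as the highest. All 14 neutrophil markers stood at 1 TPM or more, with sums of 14708 and 13966 TPM in libraries 1 and 2, led by S100a8 and S100a9, and 9 of 12 monocyte and macrophage markers did, with sums of 7801 and 10200 TPM, led by Lyz2 and Ly6c2. All 7 basophil, eosinophil and mast cell markers stood at 1 TPM or more in both libraries, with sums of 273 TPM in library 1 and 299 in library 2. The megakaryocyte markers go against the label, which is therefore used here as a label only. In bulk RNA, fewer cells of a type cannot be told apart from less RNA per cell. Smooth muscle markers were near 0: 7 of 9 lay under 1 TPM in both libraries and 5 had 0 counts, with sums of 3.58 and 2.61 TPM, and Smtn at 1.80 ± 0.552 and Acta2 at 1.28 ± 0.12 TPM were the highest. All 8 skeletal muscle markers lay under 1 TPM in both libraries.

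On the deposited TPM scale the myosin genes fell into an abundant set and a low set. Myl6, Myh9, Myl12b, Myo1f, Myl12a, Myo1g and Myo9b stood at 10 TPM or more in both libraries, and Mylk, Myh10 and Myl9 lay under 1 TPM in both. Of all 21461 nuclear protein-coding genes, 16.9% reached 10 TPM in both libraries. The median over the 10 genes was 61.0 TPM, beside 0.28 TPM over all nuclear protein-coding genes and 8.04 TPM over those at 1 TPM or more in both libraries. Mylk, at a mean of 0.445 TPM, lay above that median of 0.28 TPM, and Myh10, at 0.265 TPM, lay below it. The side of 1 TPM depended on the scale. With TPM rescaled to nuclear protein-coding genes, Mylk stood at 2.458 in library 1 and 1.119 in library 2. On that scale Myh10 was above 1 in library 1 only, and Myl9 stayed at 0.

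**Figure D1:**
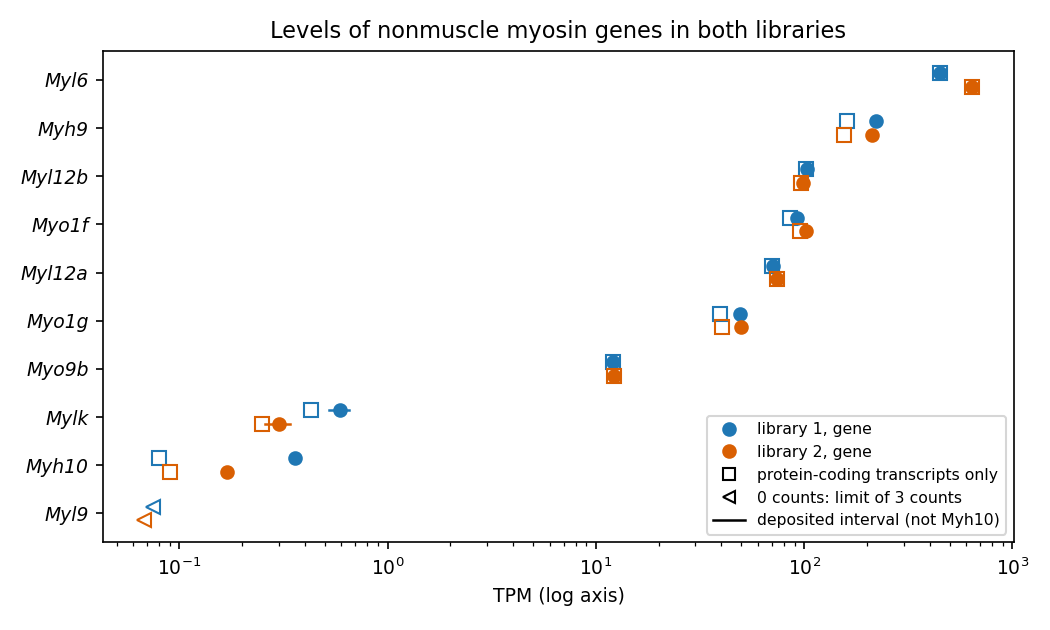
TPM of each gene in both libraries on a log axis, with filled circles for the whole gene and open squares for its protein-coding transcripts only. Lines show the deposited TPM interval, which is not drawn for Myh10 and Myl9. Open triangles show the value of 3 counts where a gene had none. Myl6, Myh9, Myl12b, Myo1f, Myl12a, Myo1g and Myo9b lie at 12.06 TPM or above in both libraries, and Mylk, Myh10 and Myl9 below 1 TPM.

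Myh9, the heavy chain of nonmuscle myosin IIA (chromosome 15, 77760587 to 77842175), dominated the class II motors. It had 119286 counts in library 1 and 131963 in library 2, or 221 and 211 TPM (216 ± 6.63, SD, n = 2). It ranked 172nd and 196th by TPM among nuclear protein-coding genes in libraries 1 and 2. Myh10, the heavy chain of myosin IIB (chromosome 11, 68691559 to 68816632), had 107 counts in library 1 and 87 in library 2, or 0.36 and 0.17 TPM. On the TPM scale Myh9 exceeded Myh10 613-fold in library 1 and 1244-fold in library 2. Exact 95% binomial intervals of the ratio of counts per length ran from 503 to 742 and from 1023 to 1576 in the same libraries. These intervals cover counting error only, do not overlap between the libraries, and leave out how reads were assigned to transcripts.

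The remaining class II heavy chains, which serve muscle, smooth muscle and some epithelia, were not detected or nearly so. Of the 14 class II heavy chain genes, 10 had 0 counts in both libraries. Myh11, the smooth muscle heavy chain, had 5 counts in library 1 and 1 in library 2, and Myh7, a cardiac and slow muscle heavy chain, had 0 and 1. Myh14, the heavy chain of nonmuscle myosin IIC, named here after its values were seen, was among the genes at 0.

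The level of Myh9 depended on how transcripts were counted. The retained-intron transcript Myh9-207 took 2780 of the Myh9 counts in library 1 and 2750 in library 2, which is 2.33% and 2.08% of them. On the TPM scale it held 25.2% and 23.4% of the gene in the same libraries, because its effective length was 499.64 and 487.49 bases against 7209.62 and 7197.47 for Myh9-201, the coding form. Myh9-207 spans chr15:77765328-77767190, covers parts of exons 33 to 35 of the 41 exons of Myh9-201, and has 351 bases inside coding-transcript exons and 372 outside them. With protein-coding transcripts only, Myh9 stood at 160 TPM in library 1 and 156 in library 2. Its coding form thus held 72.4% and 73.7% of TPM but 96.8% and 96.9% of counts.

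Myh10 reads were spread over other forms in each library. In library 1 they went to the coding Myh10-202 (62.4 counts) and the processed transcript Myh10-206 (44.6 counts), and in library 2 to the coding Myh10-201 (72.3 counts) and Myh10-206 (14.7 counts). Myh10-206 held 77.2% of the Myh10 TPM in library 1 and 49.0% in library 2. Coding Myh10 was at 0.08 TPM in library 1 and 0.09 in library 2, and the coding ratio of Myh9 to Myh10 was 1999 and 1732. Myh10-206 has 1791 of its 1811 bases inside coding-transcript exons, so its split from the coding forms rests on the quantifier's model. The coding level and the coding ratio depend on that split. At counts this low, neither the split nor which coding form is present could be resolved. The deposited interval for Myh10, 0.399 to 1.05 TPM in library 1 and 0.217 to 0.844 in library 2, lay above its deposited TPM.

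**Figure D2:**
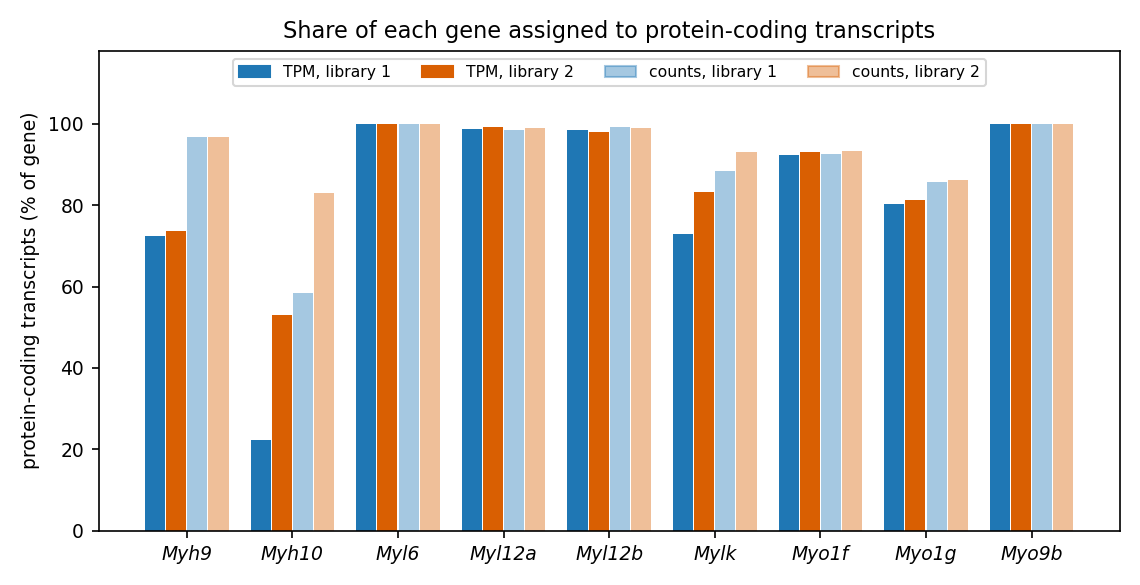
Percent of each gene's TPM (solid bars) and expected counts (pale bars) that the deposited tables assign to protein-coding transcripts, in libraries 1 and 2. Myh9 is near 73% of TPM and 97% of counts, the light chains and Myo9b are above 97% on both scales, and Myh10 differs most between libraries and scales. For Myl6 and Myo9b only protein-coding transcripts were quantified, so their share could not fall below 100%. Myl9 had 0 counts and is not drawn.

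Among the light chains, Myl6, the essential light chain (chromosome 10, 128490860 to 128494145), was the highest of the 10 genes. It had 19846 counts in library 1 and 31439 in library 2, or 449 and 642 TPM (545 ± 137, SD, n = 2), and ranked 63rd and 43rd among nuclear protein-coding genes. Library 2 was the higher, and the deposited intervals, 437 to 449.9 TPM in library 1 and 629 to 644 TPM in library 2, did not overlap. Myl6 shares at least 95% identity over 100 bases or more with 5 processed pseudogenes that also have rows. Together these held 1145 counts in library 1 and 1954 in library 2, nearly all in Gm5526, or 5.46% and 5.85% of the counts of Myl6 and the pseudogenes combined. Reads cannot be placed surely between such copies, so the level of Myl6 is uncertain, and these shares do not bound by how much. Myl6b, a related essential light chain named here after its values were seen, had 39 counts in library 1 and 24 in library 2, or 0.49 and 0.27 TPM.

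The regulatory light chains came from Myl12b and Myl12a, which lie side by side on chromosome 17 (70973133 to 70990890 and 70993656 to 71002878). Myl12b had 10582 counts in library 1 and 11300 in library 2, or 103 and 98.5 TPM. Myl12a had 6110 counts in library 1 and 7533 in library 2, or 70.9 and 74.4 TPM. Myl12b was the higher in both libraries, and the libraries did not overlap between the genes. The TPM of Myl12a was 0.687 of that of Myl12b in library 1 (exact 95% binomial interval 0.665 to 0.709 from counts per length) and 0.755 in library 2 (0.733 to 0.778). The deposited posterior SD of the count was 4.97 counts for each of them in library 1 and 5.27 for each in library 2, a small figure beside their counts. Reads that match both copies were divided by the quantifier's model, so the split between them carries an assignment error that counting intervals do not hold.

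Myl12a was read from more than a single coding form. Myl12a-201 held 88.5% of its TPM in library 1 and 83.8% in library 2, and the longer coding transcript Myl12a-206 held 10.3% and 15.1%. Myl12b-201 held 98.6% of the Myl12b TPM in library 1 and 98.0% in library 2.

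Myl9, the regulatory light chain that is abundant in smooth muscle and in platelets (chromosome 2, 156775420 to 156781658), had 0 counts in both libraries. At its effective length 3 counts, the limit set by a count of 0, are worth 0.0751 TPM (library 1) and 0.068 TPM (library 2). That limit is far below the level of either Myl12 gene. The deposited posterior mean of Myl9, 0.17 TPM in library 1 and 0.16 in library 2, is nonzero at 0 counts and was not read as detection. Of the 12 light chain genes in all, 8 lay under 1 TPM in both libraries and 5, Myl9 among them, had 0 counts in both.

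The subunit sums were compared after their values were seen. Counting protein-coding transcripts only, heavy chains summed to 160.03 TPM in library 1 and 155.98 in library 2, and regulatory light chains to 172 and 170.4 TPM. The ratio of regulatory light chains to heavy chains was 1.07 in library 1 and 1.09 in library 2. For the essential light chain Myl6 the ratio to heavy chains was 2.80 in library 1 and 4.12 in library 2. It was 2.03 and 3.04 in the same libraries with all transcripts. The only Myl6 transcript quantified is coding, so leaving out other forms lowered the heavy chain sum but not Myl6. With all transcripts the regulatory ratio was 0.788 in library 1 and 0.817 in library 2, below 1 in both, so its side of 1 turned with the treatment of Myh9-207. These are ratios of RNA levels per length, not of proteins.

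Mylk, the calcium and calmodulin dependent kinase of the regulatory light chain (chromosome 16, 34745210 to 35002420), had 374 counts in library 1 and 231 in library 2. Its level was 0.59 TPM in library 1 and 0.3 in library 2. The coding Mylk-201 held 74.0% of its TPM in library 1 and 83.4% in library 2, and the retained-intron transcript Mylk-202 held 26.0% and 16.6%. In counts Mylk-202 held 11.6% in library 1 and 6.93% in library 2. Mylk was above Myh10 within each library, though its level in library 2 lay below that of Myh10 in library 1, 0.36 TPM. In M21 the antisense genes Gm21691 and E130310I04Rik match stretches of 190 and 168 bases of Mylk-201 on the opposite strand. They were not analysed here, and whether counting used the strand is not given in the sources used here.

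Other kinases of the same light chain lay on both sides of Mylk. Of the 13 light chain kinase genes, 5 stood at 1 TPM or more in both libraries. Rock1 and Rock2 were at 27.3 ± 1.43 and 13.9 ± 0.269 TPM, and Cit, the citron kinase of cytokinesis, was at 10.1 ± 0.354 TPM (SD, n = 2). The median over the list was 0.63 TPM, and Cdc42bpg, named here after its values were seen, lay below Mylk in both libraries, at 0.33 TPM in library 1 and 0.24 in library 2.

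Myosin phosphatase, which removes the same phosphate, was detected in each of its parts. Its targeting subunits Ppp1r12c and Ppp1r12a were at 45.0 ± 7.71 and 44.3 ± 1.94 TPM, its catalytic subunit Ppp1cb at 33.8 ± 2.80 and the scaffold Mprip at 15.7 ± 0.559. Of these 9 phosphatase and inhibitor genes, 6 stood at 1 TPM or more in both libraries and 3 inhibitor genes had 0 counts in both. The filament and light chain partners had a median of 116 TPM. Actb was at 1911 ± 39.5 TPM, S100a4, a calcium-binding protein that disassembles myosin IIA filaments, at 914 ± 114, Actg1 at 617 ± 20.6 and Calm2, a calmodulin gene, at 395 ± 63.0 TPM.

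**Figure D3:**
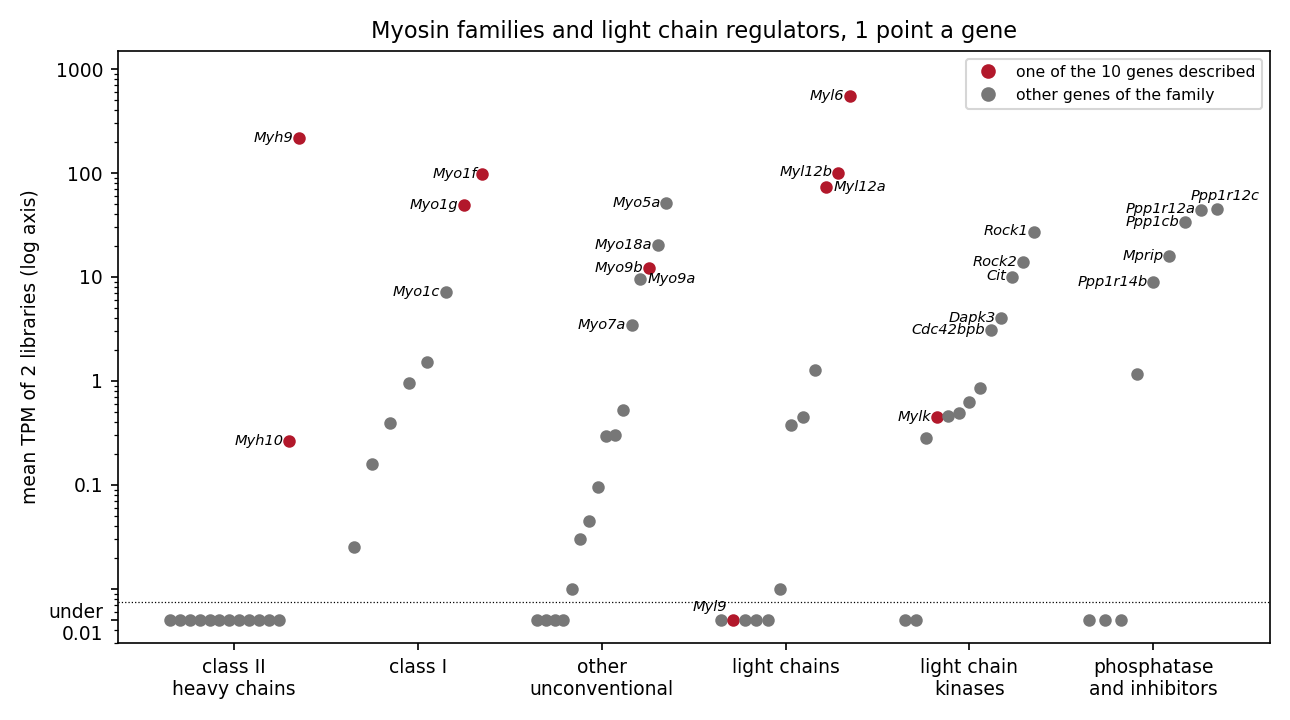
Mean TPM of 2 libraries on a log axis for every gene of 6 lists, with the 10 genes described in red and the rest of each family in grey; genes under 0.01 TPM are drawn in 1 row at the bottom. Myh9 at 216 TPM stands alone among class II heavy chains, with Myh10 at 0.265 TPM next, and Myl6 at 545 TPM leads the light chains, with Myl12b and Myl12a next.

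Of the unconventional myosins, Myo1f and Myo1g, class I motors known mainly from blood cells, were the highest of their class. Myo1f (chromosome 17, 33555707 to 33607764) had 33156 counts in library 1 and 41674 in library 2, or 92.3 and 102 TPM. Myo1g (chromosome 11, 6506548 to 6520965) had 14071 counts in library 1 and 15992 in library 2, or 48.9 and 49.9 TPM. Myo1f exceeded Myo1g 1.89-fold in library 1 (exact 95% binomial interval 1.85 to 1.92 from counts per length) and 2.05-fold in library 2 (2.01 to 2.09). Of the 8 class I myosins, 3 stood at 1 TPM or more in both libraries and 3 lay under 1 TPM in both, and the list median was 1.24 TPM.

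Both genes had reads on retained-intron forms. For Myo1f the coding Myo1f-201 held 92.4% of TPM in library 1 and 93.1% in library 2, and the retained-intron Myo1f-203 held 6.71% and 5.08%. For Myo1g the coding Myo1g-201 held 79.7% of TPM in library 1 and 78.8% in library 2. The retained-intron Myo1g-207 held 8.22% and 7.22%, and Myo1g-202, also with a retained intron, 7.54% and 7.81%. With protein-coding transcripts only, Myo1g stood at 39.3 TPM in library 1 and 40.5 in library 2, and the ratio of Myo1f to Myo1g was 2.17 and 2.35.

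Myo9b, the class IX motor (chromosome 8, 71272714 to 71360713), had 8393 counts in library 1 and 9666 in library 2, or 12.1 and 12.2 TPM. Its reads were divided among 3 coding transcripts, the only Myo9b transcripts quantified. Myo9b-201 held 37.2% of TPM in library 1 and 44.2% in library 2, Myo9b-202 held 35.5% and 29.4%, and Myo9b-203 held 27.2% and 26.3%. Myo9b-201 led in both libraries. Of the 16 unconventional myosins of other classes, 5 stood at 1 TPM or more in both libraries. Besides Myo9b, Myo5a, a cargo transporter, was at 51.2 ± 7.01 TPM and Myo18a, a myosin without motor activity of its own, at 20.1 ± 1.33 TPM.

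In the order of mean TPM, Myl6 was followed by Myh9, Myl12b, Myo1f, Myl12a, Myo1g, Myo9b, Mylk, Myh10 and Myl9. The ranges of neighbouring genes across the libraries did not overlap, except for Myl12b and Myo1f, and for Mylk and Myh10. Mylk was nevertheless above Myh10 within each library, at 0.59 against 0.36 TPM in library 1 and 0.3 against 0.17 in library 2. The deposited TPM intervals of Myh10 and Myl9 overlapped as well. Myl12b was above Myo1f in library 1 and below it in library 2. With protein-coding transcripts only, each neighbour in this order was separated. No gene was named for a pattern like theirs, since 2 libraries of a single group hold no pattern across conditions.

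The comparison of libraries asked which of these genes differed by more than counting error. Myl6 showed the largest gap among the abundant genes, with 19846 counts in library 1 and 31439 in library 2, a log2 ratio of library 1 over library 2 of -0.42 (counting SE 0.0131; adjusted p = 1.91e-231 by an exact binomial test, Benjamini-Hochberg method over all genes tested). Mylk differed the other way, with 374 and 231 counts in libraries 1 and 2 (log2 ratio 0.94, counting SE 0.121; adjusted p = 3.16e-14, same exact test). Myh10 had a log2 ratio of 0.54 (counting SE 0.208; adjusted p = 0.0162, same exact test). Of the 9 myosin genes that averaged at least 10 counts, 8 passed the threshold of 0.05, where 65.1% of 14283 genes tested did. Higher in library 1 were 5 of them (32.2% of all genes), namely Mylk, Myh10, Myl12b, Myh9 and Myo1g, and lower in library 1 were 3 (32.9% of all genes), namely Myl6, Myo1f and Myl12a. Myo9b did not pass (log2 ratio 0.04, adjusted p = 0.122, same exact test), and Myl9 was not tested.

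Most of these differences were small. None of the 9 reached a 2-fold ratio, which 13.8% of all genes did while passing the test. The median absolute log2 ratio was 0.095 over the 9 genes, beside 0.239 over all genes tested and 0.136 over the 6557 genes that averaged at least 1000 counts. The test holds counting error alone. With an assumed biological coefficient of variation of 0.1 in edgeR's exact test, 1 of the 9 genes passed, Mylk (adjusted p = 0.00107), where 17.5% of all genes did, and Myl6 did not (adjusted p = 0.159). The edgeR common coefficient of variation estimated from these libraries was 0.346, above the assumed value. The calls at 0.1 thus allow for less variation than that estimate, and no gene was tested at 0.346. Since both libraries carry the same donor label, these p-values speak to the 2 libraries only.

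**Figure D4:**
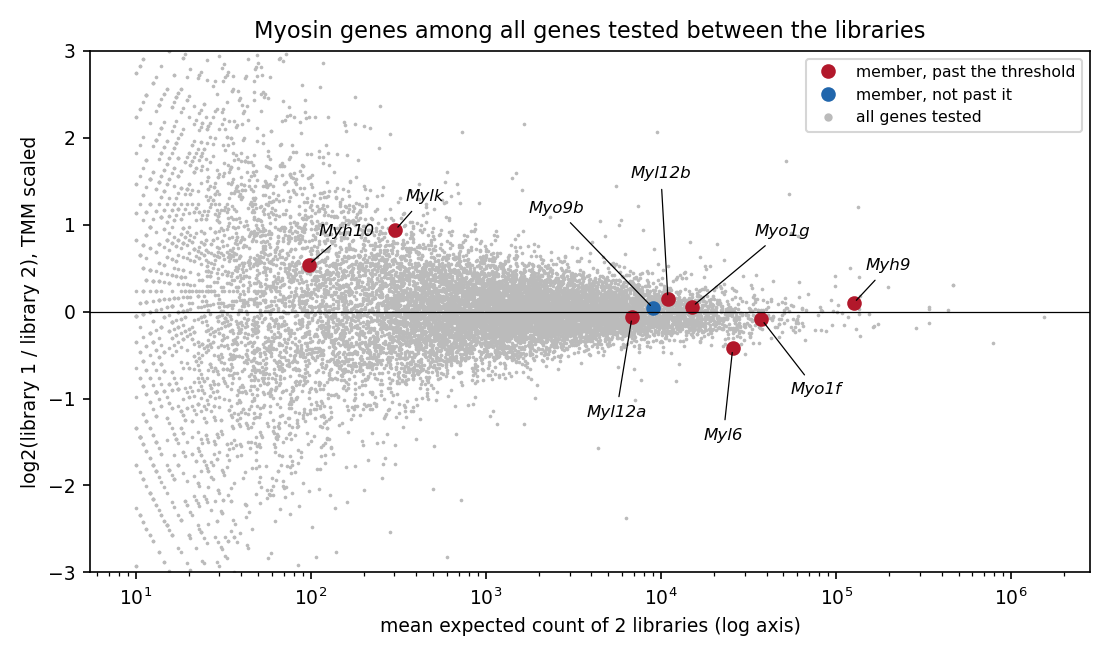
Log2 ratio of library 1 over library 2 against the mean expected count (log axis) for all genes tested in grey, with 630 genes beyond a log2 ratio of 3 not drawn, and the myosin genes in red (past the threshold) or blue (Myo9b, not past it). Mylk at 0.94 and Myh10 at 0.54 sit above 0 at low counts, Myl6 at -0.42 sits below 0, and the other genes lie between -0.09 and 0.15.

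Transcript length moved with the library ratio, as shown for nuclear protein-coding genes that averaged at least 1000 counts. Of 200 such genes with an effective length under 500 bases, 76.0% were lower in library 1, and their median log2 ratio was -0.16. Of 1412 genes of 4000 bases or more, 30.2% were lower in library 1, and their median log2 ratio was 0.08. Myl6, at an effective length of 436 bases, lay below the median of its length class, and 8% of the 200 short genes had a ratio as low or lower. Myl12a lay in the class of 500 to 1000 bases (median -0.14) and Myh9 and Myo9b in the longest. Myl12b, at a log2 ratio of 0.15, lay above the upper quartile of its class (0.05). The stated lower size limit also differed between the libraries, and the part of length in these ratios was not tested.

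Markers of other cells moved between the libraries as well, where 32.2% of all genes tested were higher and 32.9% lower in library 1 by the exact binomial test, and 17.5% passed at the assumed variation of 0.1. Of 9 erythroid markers, 8 were higher in library 1 and none lower by the same exact test, with sums of 115 TPM in library 1 and 54.9 in library 2, led by Hba-a2 and Hbb-bt, and 7 passed at the assumed variation. Of 9 lymphoid markers, 7 were tested, of which 5 were higher and 1 lower in library 1 and 3 passed at the assumed variation, with sums of 35.4 TPM in library 1 and 23.2 in library 2, led by Gzma and Cd3g. Of 12 monocyte and macrophage markers, 2 were higher and 8 lower in library 1. At the assumed variation 1 passed, C1qa, which was higher in library 1 on low counts, 21 against 7 in library 2. The related C1qb, with 47 counts in library 1 and 52 in library 2, and C1qc, with 13 and 19, passed neither test. Of 14 neutrophil markers, 10 were higher and 1 lower in library 1, and none passed at the assumed variation in edgeR's exact test. Among 7 basophil, eosinophil and mast cell markers, 2 were higher and 3 lower in library 1, and 2 passed at the assumed variation. Of the 13 light chain kinase genes, 11 were tested, of which 7, Mylk among them, were higher in library 1 and 1 lower, and 2, Mylk and Cdc42bpa, passed at the assumed variation. The part of the cell mixture in the Mylk and Myl6 ratios was not tested.

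**Figure D5:**
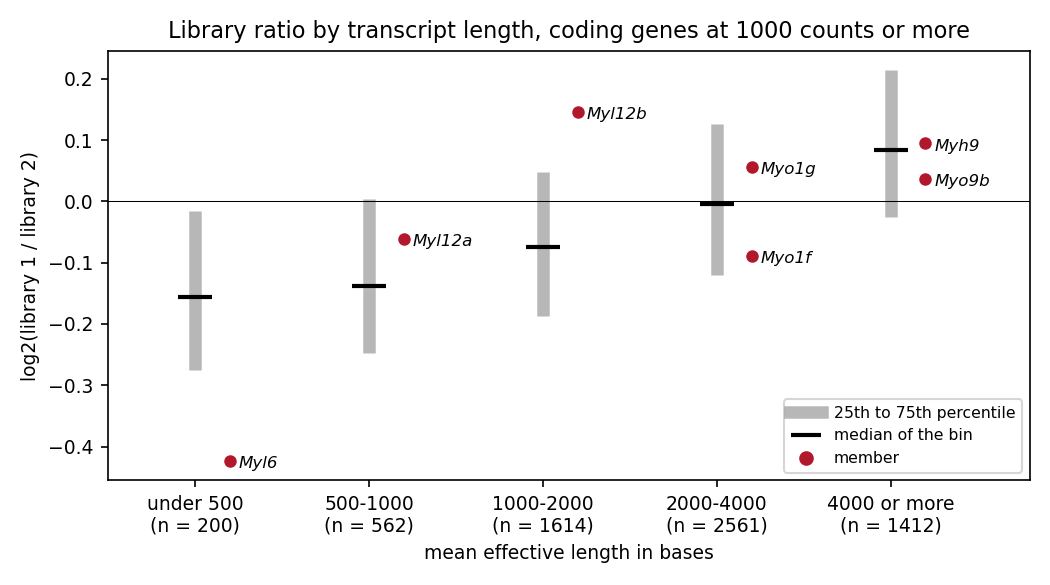
Log2 ratio of library 1 over library 2 by effective length, for nuclear protein-coding genes that averaged at least 1000 counts; grey bars span the quartiles, black marks are medians and red points are the myosin genes. Medians run from -0.16 in the shortest class to 0.08 in the longest, and Myl6 at -0.42 lies below the quartiles of its class.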

How the data were processed

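Gene and transcript tables of 2 libraries were used. The genome build was mm10 and the annotation GENCODE M4, per the text files deposited beside the tables. Neither aligner nor quantifier is named: both are not given in the sources used here. Deposited expected counts are estimated reads per gene or transcript, not normalized. The deposited TPM values are scaled by the authors to a fixed sum over all rows, of which nuclear protein-coding genes held 24.0% in library 1 and 26.8% in library 2. The deposited FPKM, the share of each transcript in its gene's TPM (deposited in percent), and the bounds of a TPM interval of unstated level (deposited as a score-like value) were used as given. Effective lengths, deposited by the authors, are in bases.

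Symbols, types and coordinates came from GENCODE M21 (mm10) by gene ID without version, with 42462 of 43346 IDs matched. Rows that name no gene held 8.88 counts in library 1 and 4 in library 2 and were left out. Counts were rounded. The 14283 genes that averaged at least 10 counts were tested for a library difference by the exact binomial test (two-sided). It was given TMM-scaled library sizes (edgeR 4.0.16, R 4.3.3), with Benjamini-Hochberg adjustment and a threshold of 0.05. The test was checked on data simulated with counting error alone, so that check leaves out any further variation between libraries. The log2 ratio and its counting error were computed here. DESeq2 1.42.0 size factors, total counts, other filters and an assumed variation of 0.1 were alternatives. A gene at 0 was given the limit of 3 counts. Intervals and limits hold counting error alone. Where reads lack molecular identifiers, PCR copies may repeat a molecule, and the intervals and limits do not allow for this. Near-identical transcripts were searched with BLAST 2.17.0 at 95% identity over 100 bases.

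The genes and lists were chosen with earlier results of these data known. Named besides the 10 genes were up to 4 genes at 10 TPM or more per pathway list, up to 2 markers per cell type, class II heavy chains with a count, and transcripts at 5% or more of a gene's TPM.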

Additional observations from a re-analysis of the deposited data

How the results depend on the processing

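The direction of all 9 library ratios was the same under DESeq2 size factors, total counts, no filter on low counts, a mean count of 100 or more (which leaves out Myh10) and nuclear protein-coding genes only, and so was each gene's side of the threshold. At an assumed variation of 0.1, 2499 genes passed in place of 9298, and of the myosin genes 1 in place of 8; that test adds variation by construction. Adding the counts of near-identical pseudogenes, an alternative chosen after seeing the data, gave Myl6 a log2 ratio of -0.43. The mean ratio of Myh9 to Myh10, 928, was 369.9 with posterior mean TPM and 1866 with protein-coding transcripts only, and ranged from 613 to 1244 when either library was left out. The ratio of Myl12a to Myl12b, 0.721, was 0.622 in counts not divided by length and ranged from 0.687 to 0.755 without either library. For Myo1f to Myo1g, 1.97, it was 2.26 with protein-coding transcripts only and 2.48 in counts, and ranged from 1.89 to 2.05. The Myh10 values rest on about 100 counts a library, so depth limits them. With shares taken from counts in place of TPM, 12 transcript shares moved by more than the SD of the libraries and 7 did not. No paired analysis was possible because the libraries form a single group.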

Other observations

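Of the 17 class I and other unconventional myosins tested between the libraries, 4 passed at an assumed variation of 0.1, beside 17.5% of all genes, so nothing particular to myosins is read from that count. None of the 4 is among the 10 genes described, and they were picked after their values were seen. Myo15, a myosin of inner ear hair cells, had 55 counts (library 1) against 4 (library 2), a log2 ratio of 4.02 with adjusted p = 7.71e-14 by the exact binomial test. Myo1e, a class I myosin, had 115 against 45 counts in the same order of libraries (log2 ratio 1.59; adjusted p = 1.68e-10, same exact test). Myo19, a mitochondrial myosin, had 234 counts in library 1 against 143 in library 2, with a log2 ratio of 0.95 and adjusted p = 1.41e-09 by the same exact test. Myo1h, of class I, was lower in library 1, with 264 counts against 502 in library 2 (log2 ratio -0.69; adjusted p = 9.36e-10, same exact test). At the assumed variation of 0.1, edgeR's exact test gave adjusted p of 5.33e-10 for Myo15, 1.91e-05 for Myo1e, 0.00236 for Myo19 and 0.0223 for Myo1h. That assumed value lies below the 0.346 estimated from these libraries.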
